A study of Mus musculus with 12 samples.

Results

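Mouse induced pluripotent stem cells (iPSC) were compared with the population sorted on day 6 of reprogramming as SSEA1+EpCAM+Sca1- and described in the labels as efficient (d6_Eff, here day 6 efficient cells). The comparison uses the libraries labelled iPSC 1 and 2 and d6 Eff 1 and 2, which are 4 of the 12 poly-A RNA-seq libraries of the series. The question set by the design is what the sorted day 6 cells lacked, and what they still held, relative to the end point of reprogramming. The 6 groups of 2 libraries were iPSC, day 6 efficient cells, day 6 inefficient cells (SSEA1+EpCAM-Sca1+), day 3 efficient cells (SSEA1+CD73+Sca1-), day 3 inefficient cells (SSEA1+CD73-Sca1+) and the starting mouse embryonic fibroblasts (MEF). All groups carry the strain label 129SV/Jae/C57BL6J. The iPSC grew in ES media, the day 3 and day 6 cells in the same kind of media with dox and AA added, and the MEF in MEF media, so medium and added agents cannot be told apart from the stage. Cells were detached with trypsin, stained with antibodies and sorted. The labels put "3/4" before iPSC and MEF without saying what it means, do not describe the introduced factors, and give no account of how the replicates of a group were obtained (cultures, lines or animals). The p-values therefore measure the spread between these samples, which may be technical.

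Reprogramming is commonly driven in fibroblasts by the transcription factors Oct4 (Pou5f1), Sox2, Klf4 and Myc. Cells lose matrix and mesenchymal genes, gain epithelial junctions, and later switch on a self-sustaining network of naive pluripotency factors that no longer needs the introduced copies. SSEA1 is a carbohydrate on the surface of mouse pluripotent cells, EpCAM an epithelial adhesion molecule, and Sca1 a surface protein of fibroblasts and several progenitors. The counts per gene do not separate transcripts of endogenous genes from those of introduced copies. In bulk samples, fewer cells of a kind and less RNA per cell cannot be told apart.

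Reads assigned to genes numbered 22577091 and 14911103 in the iPSC libraries and 20730460 and 16255091 in those of day 6 efficient cells, within a range of 9284060 to 22763548 over all 12. Levels are given as counts per 1000000 gene counts after TMM scaling (CPM), with replicate 1 before replicate 2. Pearson correlations of log2 levels across genes were 0.980 between the iPSC libraries, 0.968 between the libraries of day 6 efficient cells and 0.833 to 0.845 across the groups. Reads outside annotated genes made up 24.1% in replicate 2 of day 6 efficient cells, against 6.32% to 8.91% in the other 3 libraries compared, and results that turn on that library are given with and without it. The sorting labels were checked first. Epcam (ENSMUSG00000045394) had 348 and 391 CPM in iPSC, against 947 and 994 CPM in day 6 efficient cells, and at most 0.568 CPM in MEF. Ly6a (ENSMUSG00000075602), which encodes Sca1, had 0.0860 and 0.0659 CPM in iPSC, against 16.2 and 8.52 CPM in day 6 efficient cells, 520 and 551 CPM in day 6 inefficient cells and 112 and 186 CPM in MEF. Day 6 efficient cells were thus the group with high Epcam and low Ly6a that their label states, with Ly6a above the iPSC level.

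Of 16240 genes tested, 4801 (29.6%) were called between iPSC and day 6 efficient cells at a Benjamini-Hochberg adjusted p under 0.05 by edgeR's quasi-likelihood test, 2215 (13.6%) higher and 2586 (15.9%) lower in iPSC. The median log2 fold change of the called genes was 2.03 for those higher and -1.84 for those lower, and 564 and 351 genes passed an absolute log2 fold change of 5. The 2 iPSC libraries lay above both libraries of day 6 efficient cells for 37.0% of all genes and below both for 35.6%. Counts of calls depended on single libraries. Leaving out iPSC replicate 1 left 2834 calls, leaving out iPSC replicate 2 left 2858, leaving out d6_Eff replicate 2 left 3149, and no call had turned to the opposite direction in these fits. Leaving out MEF replicate 2, the library with 47.2% of its reads outside genes, raised the genes called higher to 3352. Leaving out MEF replicate 1, with 5.10% of its reads outside genes, raised them to 3193, so the rise was not particular to replicate 2. The shares of 13.6% and 15.9% are the background against which the gene groups below are counted. A gene not called is not shown to be equal in both groups. Genes with 0 counts in day 6 efficient cells could pass edgeR's filter on low counts through other groups. Such genes could not be called lower in iPSC, and genes with 0 counts in iPSC could not be called higher. Counts for lists with silent members are therefore descriptions.

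**Figure D1:**
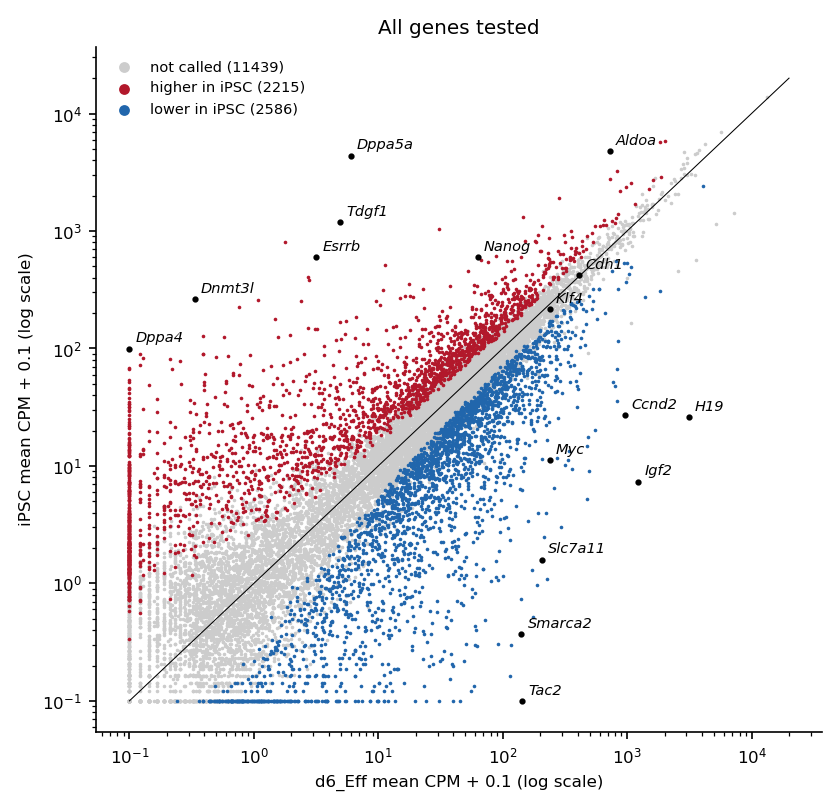
Mean level of each of 16240 genes in iPSC (vertical axis, CPM + 0.1, log scale) against day 6 efficient cells (horizontal axis, same scale). The 2215 genes called higher lie above the diagonal and the 2586 called lower below it. Cdh1 and Klf4 sit on the diagonal, Dppa5a and Esrrb far above it and Tac2 and Smarca2 far below it.

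The reprogramming factors themselves did not move together. Pou5f1 (ENSMUSG00000024406) had 576 and 645 CPM in iPSC, against 72.3 and 104 CPM in day 6 efficient cells, 6.92-fold higher (log2 2.79 ± 0.34, SE; adjusted p = 0.000108). Sox2 (ENSMUSG00000074637) had 637 and 655 CPM in iPSC, against 244 and 219 CPM in day 6 efficient cells, 2.79-fold higher (adjusted p = 0.00182). For both genes every iPSC library lay above every library of day 6 efficient cells. Klf4 (ENSMUSG00000003032) overlapped between the groups, with 230 and 200 CPM in iPSC against 223 and 255 CPM in day 6 efficient cells (log2 -0.15 ± 0.38; adjusted p = 0.816). Myc (ENSMUSG00000022346), which drives growth and proliferation, had 11.0 and 11.1 CPM in iPSC, against 240 and 238 CPM in day 6 efficient cells and 86.9 and 51.9 CPM in MEF. It was 21.6-fold lower in iPSC (log2 -4.43 ± 0.26; adjusted p = 7.99e-07), below all 4 libraries of the other stages named. Exons of Pou5f1 overlap a gene on the opposite strand, Gm19553, and the counting ignored strand.

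Naive pluripotency factors were broadly higher in iPSC. Of 31 members tested, 25 were higher, 0 were lower and 6 were not called (Il6st, Nr5a2, Rif1, Sall1, Stat3 and Tet2), with a median log2 fold change of 3.24 beside 0 over all genes. For the naive factors, the stem cell markers and the glycolysis genes described below, 0 members were lower at an unadjusted p under 0.05 in edgeR's test and 0 were lower by DESeq2. Between 25 and 29 naive factors were called higher when any 1 library was left out. The members took 0.757% and 0.746% of gene counts in iPSC, against 0.183% and 0.191% in day 6 efficient cells and 0.146% and 0.0642% in MEF. The share on day 6 was not particular to the efficient cells. Day 6 inefficient cells took 0.165% and 0.161%, day 3 efficient cells 0.153% and 0.158%, and day 3 inefficient cells 0.144% and 0.121%. Single members were already present in day 6 efficient cells. Nanog (ENSMUSG00000012396), a homeobox factor, had 636 and 557 CPM in iPSC, against 67.5 and 58.4 CPM in day 6 efficient cells and at most 0.723 CPM in MEF. It was 9.46-fold higher in iPSC (log2 3.24 ± 0.35; adjusted p = 4.44e-05). Nr0b1, an orphan nuclear receptor, had 126 and 138 CPM in iPSC, against 45.7 and 47.6 CPM in day 6 efficient cells and 0 in both MEF libraries. Nanog and Nr0b1 were thus partway between MEF and iPSC on day 6.

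A further set was near zero on day 6. Esrrb (ENSMUSG00000021255), an orphan nuclear receptor that sustains naive self-renewal, had 593 and 604 CPM in iPSC, against 2.49 and 3.64 CPM in day 6 efficient cells, 196-fold higher (log2 7.62 ± 0.40; adjusted p = 3.84e-07). Zfp42, the zinc finger protein Rex1, had 398 and 369 CPM in iPSC, against 1.83 and 3.52 CPM in day 6 efficient cells. Tbx3, a T-box factor, had 80.0 and 81.9 CPM in iPSC, against 0.223 and 0 CPM in day 6 efficient cells. For these 3 genes the lowest iPSC library stood more than an order of magnitude above the highest library of day 6 efficient cells. Prdm14, a factor of naive cells and germ cell precursors, had 54.3 and 50.4 CPM in iPSC, against 0.223 and 0.764 CPM in day 6 efficient cells (adjusted p = 0.000159 by edgeR, 0.315 by DESeq2). Dppa3, a maternal factor that protects DNA methylation in the early embryo, had 38.2 and 35.8 CPM in iPSC, against 0.134 and 0 CPM in day 6 efficient cells. Tfcp2l1, a grainyhead-like factor of the naive network, and Klf5 were intermediate in size of difference, 15.5-fold and 13.4-fold higher in iPSC (adjusted p = 2.77e-05 and 9.57e-06).

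The Krüppel-like factors, which can partly replace each other in self-renewal, differed in course. Klf2 (ENSMUSG00000055148) had 242 and 267 CPM in iPSC, against 1.69 and 2.88 CPM in day 6 efficient cells, 112-fold higher (log2 6.81 ± 0.30; adjusted p = 2.17e-07). The MEF held 48.0 and 42.6 CPM, so day 6 efficient cells were also below their starting cells (log2 -4.32 in day 6 efficient cells against MEF; adjusted p = 7.08e-07). Klf5 had 103 and 115 CPM in iPSC, against 7.88 and 8.34 CPM in day 6 efficient cells and 9.70 and 4.33 CPM in MEF. Klf4 alone among these 3 was not called between iPSC and day 6 efficient cells.

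**Figure D2:**
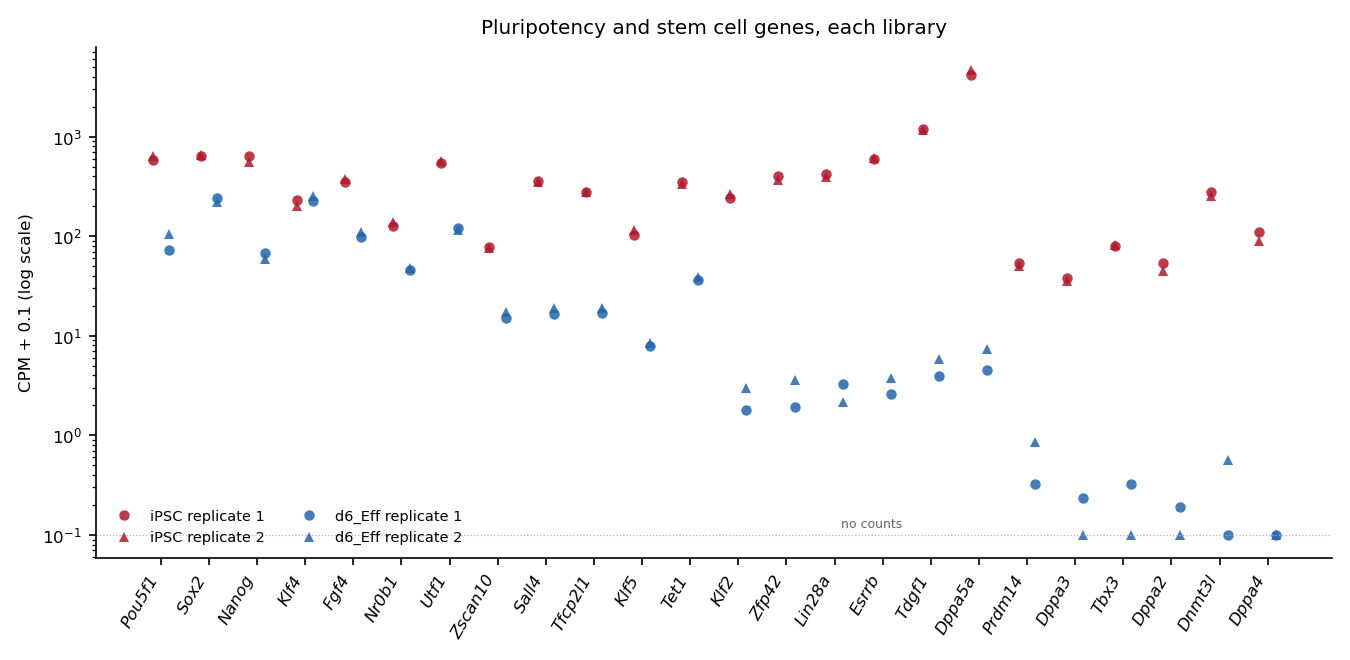
Level of 24 pluripotency and reprogramming genes in each library (CPM + 0.1, log scale), iPSC in red and day 6 efficient cells in blue, circles for replicate 1 and triangles for replicate 2. Nanog, Nr0b1 and Sox2 have day 6 levels within about an order of magnitude of iPSC, whereas Esrrb and Zfp42 have day 6 levels of 3.64 CPM or less, and Tbx3 and Dppa4 lie at or next to the line of no counts.

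Stem cell markers outside the transcription factors were also split into genes near 0 and genes present on day 6, with larger differences. Of 35 tested, 31 were higher, 0 lower and 4 not called (Fut9, L1td1, Pipox and Tdh), with a median log2 fold change of 5.42. They took 1.09% and 1.13% of gene counts in iPSC, against 0.131% and 0.124% in day 6 efficient cells and 0.266% and 0.246% in MEF. By this share day 6 efficient cells were below MEF, unlike for the naive factors, so the list also holds genes expressed in MEF. Dppa4 (ENSMUSG00000058550), a chromatin protein that acts as a partner of Dppa2, had 110 and 89.4 CPM in iPSC, against 0 counts in both libraries of day 6 efficient cells and in MEF. With 3 counts over the group as the floor, the difference was at least 1313-fold (adjusted p = 2.33e-05). Dppa2 had 53.5 and 44.4 CPM in iPSC, against 0.0891 and 0 CPM in day 6 efficient cells. Both partners were therefore at or next to 0 on day 6. Dppa5a (ENSMUSG00000060461), an RNA-binding protein of embryonic stem cells, had 4121 and 4643 CPM in iPSC, against 4.45 and 7.34 CPM in day 6 efficient cells, 746-fold higher (log2 9.54 ± 0.53; adjusted p = 5.96e-07).

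Lin28a, which blocks maturation of let-7 microRNAs, had 417 and 392 CPM in iPSC, against 3.16 and 2.06 CPM in day 6 efficient cells, 153-fold higher (adjusted p = 2.77e-06). Dnmt3l (ENSMUSG00000000730), the catalytically inactive partner of the de novo DNA methyltransferases, had 275 and 254 CPM in iPSC, against 0 and 0.470 CPM in day 6 efficient cells. Utf1, a chromatin-bound stem cell factor, had 541 and 567 CPM in iPSC, against 121 and 114 CPM in day 6 efficient cells (log2 fold change 2.23 ± 0.31; adjusted p = 0.000381). The LINE-1-derived gene L1td1, whose protein binds RNA, was near the iPSC level on day 6, with 434 and 421 CPM in iPSC against 544 and 517 CPM in day 6 efficient cells (log2 -0.31 ± 0.21; adjusted p = 0.292). Utf1 and L1td1 were at most 0.419 CPM in MEF. Exons of Lin28a and Dnmt3l overlap the opposite-strand genes Gm13061 and Aire.

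Germline genes were largely silent on day 6. They serve meiosis and the piRNA defence against transposons, and many are held silent in somatic cells by DNA methylation at their promoters and by a Polycomb complex that contains the E-box-binding proteins Mga and Max. Of 34 germline genes tested, 22 were higher in iPSC, 1 was lower (Tdrkh, adjusted p = 0.0122, not called without d6_Eff replicate 1 or either iPSC library) and 11 were not called, and 18 to 26 were higher when 1 library was left out. Their median log2 fold change was 5.19. They took 0.0724% and 0.0730% of gene counts in iPSC, against 0.00663% and 0.00528% in day 6 efficient cells. Of the 38 members matched, 13 had no count in either library of day 6 efficient cells, whereas 1 had none in either iPSC library. Tested members with no day 6 count passed the filter on low counts through other groups and could not be called lower. The split of 22 and 1 and the median are therefore partly fixed by the filter.

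The promoters of 4 of these genes are shown because germline genes are a known group of targets of E-box-binding repressors and because the 4 genes represent the RNA helicase, piRNA, meiotic and translational branches of the list. The sequences are from RefSeq on GRCm38.p6, 250 bases before to 50 after the start, 5′ to 3′ on the gene's strand, with each CACGTG (an E-box, the same on both strands) in capitals. Ddx4 lies at chr13:112652261-112652560 (minus strand), Mael at chr1:166238695-166238994 (minus strand), Sycp3 at chr10:88459337-88459636 (plus strand) and Dazl at chr17:50293571-50293870 (minus strand).
Ddx4: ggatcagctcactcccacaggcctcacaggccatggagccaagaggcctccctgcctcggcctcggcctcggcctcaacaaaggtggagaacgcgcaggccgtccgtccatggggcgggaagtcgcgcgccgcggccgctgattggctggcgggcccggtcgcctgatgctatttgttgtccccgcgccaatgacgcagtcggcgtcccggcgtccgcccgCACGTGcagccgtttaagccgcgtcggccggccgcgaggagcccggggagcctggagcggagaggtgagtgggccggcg
Mael: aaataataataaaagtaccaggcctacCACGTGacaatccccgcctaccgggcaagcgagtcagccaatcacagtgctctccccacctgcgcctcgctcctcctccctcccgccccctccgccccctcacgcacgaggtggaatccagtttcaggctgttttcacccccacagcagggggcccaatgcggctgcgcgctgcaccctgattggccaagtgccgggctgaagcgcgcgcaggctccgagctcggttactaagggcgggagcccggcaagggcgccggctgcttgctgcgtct
Sycp3: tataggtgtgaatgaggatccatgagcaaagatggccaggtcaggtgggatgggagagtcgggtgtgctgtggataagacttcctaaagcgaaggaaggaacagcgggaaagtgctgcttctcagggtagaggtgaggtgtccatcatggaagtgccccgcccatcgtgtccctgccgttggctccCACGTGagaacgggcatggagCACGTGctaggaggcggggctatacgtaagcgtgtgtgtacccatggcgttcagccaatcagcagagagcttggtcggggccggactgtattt
Dazl: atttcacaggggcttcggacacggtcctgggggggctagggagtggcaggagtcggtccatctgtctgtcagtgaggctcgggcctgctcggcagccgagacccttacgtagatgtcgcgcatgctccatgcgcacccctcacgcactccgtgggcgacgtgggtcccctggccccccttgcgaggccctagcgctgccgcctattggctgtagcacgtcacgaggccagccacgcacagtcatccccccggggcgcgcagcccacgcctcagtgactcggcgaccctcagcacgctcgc
The Ddx4 window holds 1 match at position -29 from the start, the Mael window 1 at -223, the Sycp3 window 2 with the first at -64, and the Dazl window 0. Across the list, CACGTG was present in 10 of the 22 germline promoters with a single RefSeq window (45.5%), 8 of 16 among members called higher and 2 of 6 among the others. It was present in 9.98% of the promoters of all 9061 tested genes with such a window, and in 11.4% of those with a CpG ratio of observed to expected of at least 0.6. A second motif, TCCCGC on either strand, was present in 13 of the 22 germline promoters (59.1%), in 36.3% of all promoters and in 44.0% of the CpG-rich ones. A match describes the letters only.

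Ddx4 (ENSMUSG00000021758), a germ cell RNA helicase, had 33.8 and 34.7 CPM in iPSC, against 0.223 and 0.235 CPM in day 6 efficient cells, 146-fold higher (log2 7.19 ± 0.84; adjusted p = 0.000127). Mael, a piRNA pathway protein, had 13.0 and 14.7 CPM in iPSC, against 0 counts in day 6 efficient cells, at least 182-fold higher (adjusted p = 0.00105). Sycp3, a protein of the meiotic chromosome axis, had at least 18.9 CPM in both iPSC libraries, against 0 counts in day 6 efficient cells, at least 250-fold higher (adjusted p = 0.000272). In all 3 the iPSC libraries agreed closely and day 6 efficient cells were at or next to 0. Dazl, an RNA-binding regulator of translation in germ cells, had 16.2 and 12.5 CPM in iPSC, against 0 counts in day 6 efficient cells, at least 189-fold higher (adjusted p = 0.00543 by edgeR, 0.103 by DESeq2). Dmrt1, a testis-determining transcription factor, had 69.8 and 65.2 CPM in iPSC, against 0 counts in day 6 efficient cells and also in MEF, a difference of at least 888-fold (adjusted p = 0.000167). Tdrd12, a Tudor-domain piRNA factor, had 76.9 and 70.7 CPM in iPSC, against 0.535 and 0.822 CPM in day 6 efficient cells (adjusted p = 1.32e-05). Sycp3 exons overlap the opposite-strand gene Chpt1.

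Signalling ligands of the FGF and Nodal pathways were split in the same way. FGF4 signals from pluripotent cells to themselves and their neighbours, and Nodal acts through the co-receptor Cripto (Tdgf1) and is restrained by its inhibitors Lefty1 and Lefty2. Of 38 FGF, Nodal and Wnt genes tested, 16 were higher, 9 lower and 13 not called (median log2 fold change 1.36). The ligands Fgf4 and Nodal were present on day 6. Fgf4 had 349 and 373 CPM in iPSC, against 97.4 and 111 CPM in day 6 efficient cells, 3.46-fold higher (adjusted p = 1.73e-05), and Nodal had 58.2 and 61.7 CPM in iPSC, against 22.8 and 23.5 CPM in day 6 efficient cells, 2.59-fold higher (adjusted p = 0.00233). The co-receptor and the inhibitors were nearly absent. Tdgf1 had 1190 and 1178 CPM in iPSC, against 3.83 and 5.81 CPM in day 6 efficient cells, 247-fold higher (adjusted p = 3.76e-07). Lefty1 had 177 and 178 CPM in iPSC, against 1.69 and 1.06 CPM in day 6 efficient cells, and Lefty2 had 89.6 and 85.7 CPM in iPSC, against 0.490 and 1.17 CPM in day 6 efficient cells.

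Several genes of the primed epiblast and early lineages were at 0 on day 6. Of 12 tested, 8 were higher in iPSC, 1 lower and 3 not called, and the 8 became 4 or 5 when d6_Eff replicate 1 (4), d6_Eff replicate 2 (5), iPSC replicate 1 (4) or iPSC replicate 2 (5) was left out. Otx2, a homeobox factor of the epiblast and forebrain, had 57.8 and 46.1 CPM in iPSC, against 0 counts in day 6 efficient cells, at least 683-fold higher (adjusted p = 2.43e-05). Eomes, a T-box factor of the primitive streak and trophoblast, had 9.58 and 8.70 CPM in iPSC, against 0 counts in day 6 efficient cells, at least 120-fold higher (adjusted p = 0.000245). Both genes were at most 0.0516 CPM in MEF. The lower member was Dusp6, a phosphatase induced by FGF signalling, with 54.8 and 42.0 CPM in iPSC, against 228 and 234 CPM in day 6 efficient cells (adjusted p = 1.53e-05). The list as a whole took 0.0207% and 0.0173% of gene counts in iPSC, against 0.0264% and 0.0264% in day 6 efficient cells. Dusp6 made up most of the day 6 total, which summed to 244 and 252 CPM. Of the 20 members, 15 had 0 counts in each library of day 6 efficient cells. Tested members with 0 counts in both of these libraries passed the filter on low counts through other groups. They could not be called lower, so the split of 8 and 1 is partly fixed by the filter.

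Genes of glycolysis were largely higher in iPSC. Pluripotent cells are known for a high glycolytic rate. Of 23 genes of glycolysis and lactate handling tested, 20 were higher in iPSC, 0 lower and 3 not called (Eno3, Hk1 and Pfkm), with a median log2 fold change of 1.93 and 19 to 21 called higher when 1 library was left out. Without MEF replicate 1 or 2, or in the 4 compared libraries alone, 1 member was called lower. The group took 2.90% and 2.94% of gene counts in iPSC, against 0.823% and 0.786% in day 6 efficient cells and 1.38% and 1.27% in MEF. The share in day 6 efficient cells was thus the lowest of the 3 groups, but it was not particular to them. Day 6 inefficient cells took 0.704% and 0.727%, day 3 efficient cells 0.837% and 0.878%, and day 3 inefficient cells 0.815% and 0.755%. The glucose transporter Slc2a1 (ENSMUSG00000028645) had 1245 and 1394 CPM in iPSC, against 146 and 147 CPM in day 6 efficient cells and 300 and 255 CPM in MEF, 9.02-fold higher in iPSC (log2 3.17 ± 0.18; adjusted p = 5.92e-07). Aldoa, a glycolytic aldolase, had 4775 and 4815 CPM in iPSC, against 725 and 729 CPM in day 6 efficient cells and 2184 and 2549 CPM in MEF. Slc16a3, a lactate exporter, had 159 and 185 CPM in iPSC, against 6.59 and 4.29 CPM in day 6 efficient cells and 374 and 289 CPM in MEF, 31.4-fold higher in iPSC (adjusted p = 9.54e-07). For these 3 genes day 6 efficient cells were below both iPSC and MEF. Slc2a3, a transporter of high affinity for glucose, took another course, with 1879 and 1952 CPM in iPSC, against 298 and 270 CPM in day 6 efficient cells and 18.2 and 22.3 CPM in MEF. Exons of Slc2a1 and Aldoa overlap the opposite-strand genes Gm12868 and Fam57b.

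A joint list held targets of the hypoxia factor HIF and of the antioxidant factor NRF2. Of its 27 genes, 15 were higher, 3 lower and 9 not called. Bnip3, a mitophagy receptor, had 303 and 256 CPM in iPSC, against at most 17.7 CPM in both libraries of day 6 efficient cells and 242 and 341 CPM in MEF, 17.1-fold higher in iPSC (adjusted p = 7.39e-07). Egln3, a prolyl hydroxylase that marks HIF for breakdown, had 224 and 222 CPM in iPSC, against 54.3 and 59.3 CPM in day 6 efficient cells. The 3 lower genes were Slc7a11, Nqo1 and Gstm1. Slc7a11, the cystine importer, had 1.68 and 1.32 CPM in iPSC, against 221 and 191 CPM in day 6 efficient cells and 19.3 and 29.9 CPM in MEF, 136-fold lower in iPSC (log2 -7.08 ± 0.28; adjusted p = 1.04e-07). Nqo1, a quinone reductase, had 22.8 and 22.9 CPM in iPSC, against 189 and 150 CPM in day 6 efficient cells. The haem oxygenase Hmox1, also an NRF2 target, was higher in iPSC, with 145 and 147 CPM against 25.7 and 21.6 CPM in day 6 efficient cells. The group therefore had no single direction.

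Serine and one-carbon enzymes were less uniform. Of 20 tested, 8 were higher, 4 lower and 8 not called, and the 8 became 5 without d6_Eff replicate 1 or iPSC replicate 1 and 4 without d6_Eff replicate 2 or iPSC replicate 2. Psat1, a serine synthesis enzyme, had 703 and 649 CPM in iPSC, against 302 and 256 CPM in day 6 efficient cells, 2.42-fold higher (adjusted p = 0.00281). Mthfd2, a mitochondrial folate enzyme, had 167 and 165 CPM in iPSC, against 69.1 and 51.5 CPM in day 6 efficient cells, 2.75-fold higher (adjusted p = 0.000123). Mtr, methionine synthase, was 2.40-fold lower, with 47.2 and 50.3 CPM in iPSC against 112 and 122 CPM in day 6 efficient cells (adjusted p = 0.00307). Threonine dehydrogenase (Tdh), known as an enzyme of mouse embryonic stem cells, was at 0.559 CPM or less in all 4 libraries.

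Chromatin regulators changed in both directions. Of 46 Polycomb and histone-modifying genes, 15 were higher, 9 lower and 22 not called, with a median log2 fold change of 0.22. The 9 lower became 14 without MEF replicate 1, 5 without d6_Eff replicate 1 or iPSC replicate 1, and 4 without iPSC replicate 2. Members of the Polycomb repressive complexes exchanged. Mtf2 and Jarid2, accessory subunits that guide PRC2, were 4.30-fold and 3.07-fold higher in iPSC (adjusted p = 3.12e-05 and 0.00291), whereas Phf19, another guiding subunit, was 6.35-fold lower, with 8.68 and 8.50 CPM in iPSC against 50.5 and 58.7 CPM in day 6 efficient cells (adjusted p = 1.57e-05). In PRC1, Cbx7, a reader of the Polycomb mark, had 128 and 117 CPM in iPSC, against 45.6 and 45.9 CPM in day 6 efficient cells, and was 2.68-fold higher (adjusted p = 0.000226). Bmi1, which represses the Cdkn2a locus in somatic stem cells, had 9.46 and 8.83 CPM in iPSC, against 87.8 and 68.8 CPM in day 6 efficient cells, and was 8.56-fold lower (adjusted p = 6.61e-06). The largest difference in the list was in Smarca2 (ENSMUSG00000024921), the Brm ATPase of the SWI/SNF remodeller. It had 0.473 and 0.0659 CPM in iPSC, against 131 and 151 CPM in day 6 efficient cells and 33.5 and 22.9 CPM in MEF, 454-fold lower in iPSC (log2 -8.83 ± 0.44; adjusted p = 2.77e-07). Exons of Smarca2 overlap the opposite-strand gene 4931403E22Rik, those of Mtf2 overlap Tmed5 and those of Cbx7 overlap Apobec3.

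The enzymes of DNA methylation were mixed as well. Of 20 tested, 4 were higher, 5 lower and 11 not called, and 7 and 8 were higher without MEF replicate 1 and MEF replicate 2. Tet1, which oxidises methylcytosine and is the main family member of pluripotent cells, had 352 and 332 CPM in iPSC, against 36.0 and 39.0 CPM in day 6 efficient cells, 9.12-fold higher (log2 3.19 ± 0.20; adjusted p = 1.24e-06). Tet3, the form prominent in oocytes and differentiated cells, had 8.81 and 6.06 CPM in iPSC, against 49.8 and 50.5 CPM in day 6 efficient cells, 6.70-fold lower (adjusted p = 0.00294). The libraries of the 2 groups did not overlap for either gene. Dnmt1, the maintenance methyltransferase, had 218 and 200 CPM in iPSC, against 220 and 253 CPM in day 6 efficient cells (log2 -0.18 ± 0.56; adjusted p = 0.859). Dnmt3a had 151 and 148 CPM in iPSC, against 80.5 and 94.1 CPM in day 6 efficient cells, with an adjusted p of 0.197 that became 0.000334 without MEF replicate 1 and 0.000271 without MEF replicate 2.

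Groups tied to proliferation and growth gave few stable calls. Of 30 DNA replication genes 7 were higher and 2 lower, of 30 mitotic genes 5 were higher and 1 lower, of 33 genes of ribosome biogenesis and the Myc network 8 were higher and 2 lower, and of 32 oxidative phosphorylation genes 5 were higher and 0 lower (1 lower at an unadjusted p under 0.05 by edgeR, 0 by DESeq2). Nearly every library decided these counts. Without d6_Eff replicate 1, d6_Eff replicate 2, iPSC replicate 1 or iPSC replicate 2, the replication genes called higher numbered 1, 2, 1 and 0 in that order, the mitotic genes 2, 1, 1 and 2, the ribosome and Myc genes 3, 3, 4 and 4, and the oxidative phosphorylation genes 1 each. Without MEF replicate 1 or 2 they numbered 11 and 12, 11 and 12, 14 and 16, and 9 and 10 for the 4 groups, and without any 1 library of the other 3 day 3 and day 6 groups the replication genes numbered 4 or 5, the mitotic genes 2 or 3 and the oxidative phosphorylation genes 3. The genes called lower ranged over 2 to 4, 1 to 3, 0 to 2 and 0 to 2 in the 4 groups. Median log2 fold changes were 0.30 for replication, 0.26 for mitosis and 0.13 for oxidative phosphorylation. The fall of Myc in iPSC, given above, was not accompanied by lower calls in most of its listed network.

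**Figure D3:**
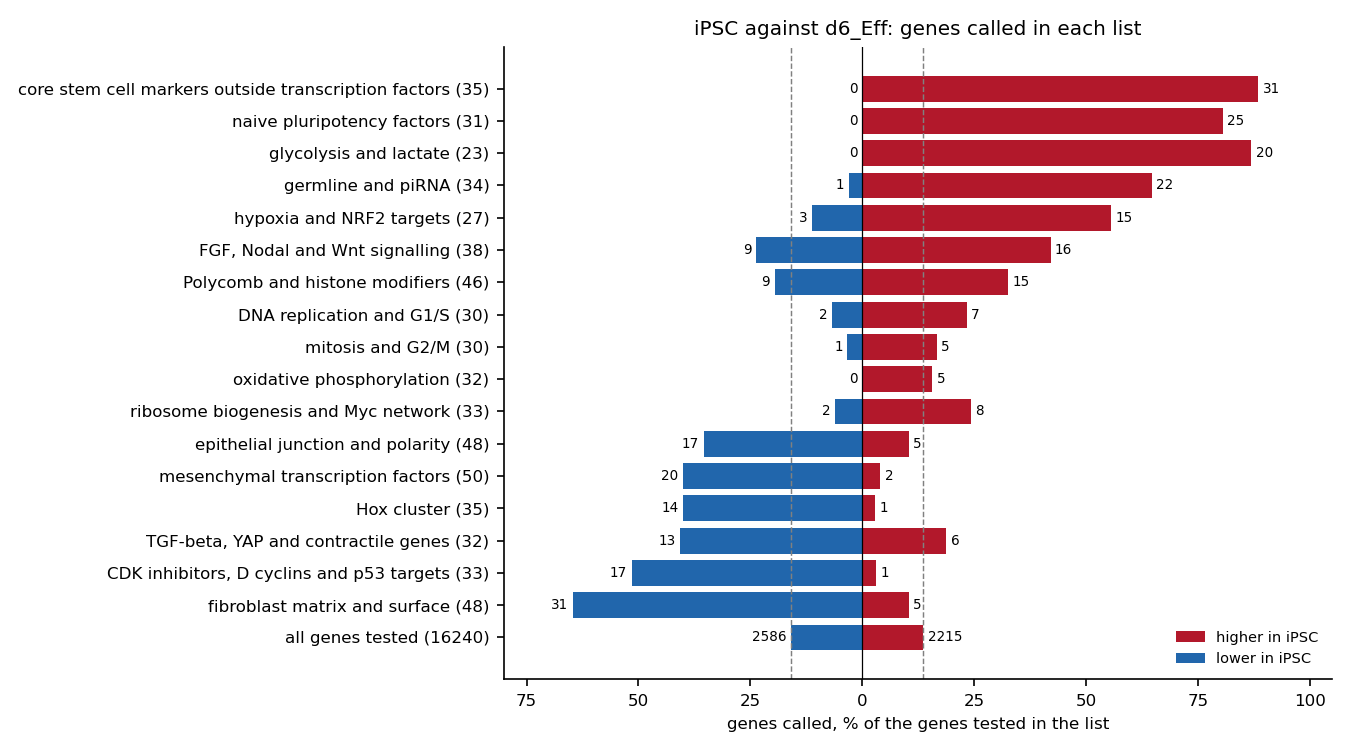
Share of tested members called higher (bars to the right) and lower (bars to the left) in iPSC against day 6 efficient cells, for 17 gene groups and for all genes, with dashed lines at the shares of all genes, 13.6% and 15.9%. Core stem cell markers, glycolysis, naive factors and germline genes reach furthest to the right, and matrix genes and the list of CDK inhibitors, D cyclins and p53 targets furthest to the left.

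Among genes lower in iPSC, remnants of the fibroblast state came first. Fibroblast matrix and surface genes were lower for 31 of 48 tested, higher for 5 and not called for 12, with a median log2 fold change of -3.57 and 28 to 35 lower when 1 library was left out. The 5 higher became 8 and 9 without MEF replicates 1 and 2, and 3 without d6_Eff replicate 2 or iPSC replicate 1. They took 0.125% and 0.119% of gene counts in iPSC, against 0.367% and 0.334% in day 6 efficient cells and 12.0% and 5.12% in MEF. Most of the fibroblast level was thus gone by day 6, and the part that remained was lower again in iPSC. Col1a1, the main fibrillar collagen chain, had 2.02 and 1.45 CPM in iPSC, against 56.3 and 30.1 CPM in day 6 efficient cells and 20038 and 3655 CPM in MEF, 24.5-fold lower in iPSC (adjusted p = 0.000612). Col3a1 had 0.129 and 0.593 CPM in iPSC, against 31.0 and 22.4 CPM in day 6 efficient cells. Cd44, the hyaluronan receptor, had 0.946 and 0.264 CPM in iPSC, against 44.0 and 41.7 CPM in day 6 efficient cells and 356 and 374 CPM in MEF, 65.0-fold lower in iPSC (log2 -6.02 ± 0.36; adjusted p = 9.21e-07). Vim, the mesenchymal intermediate filament, had 108 and 104 CPM in iPSC, against 540 and 376 CPM in day 6 efficient cells.

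Other matrix genes were already at or below the iPSC level on day 6. Lgals1, a secreted lectin, had 54.8 and 46.1 CPM in iPSC, against 51.9 and 50.9 CPM in day 6 efficient cells and 3399 and 8270 CPM in MEF (adjusted p = 0.974 in iPSC against day 6 efficient cells). Vcan, a matrix proteoglycan, had 13.1 and 14.1 CPM in iPSC, against 1.74 and 1.06 CPM in day 6 efficient cells and 796 and 312 CPM in MEF, 9.52-fold higher in iPSC (adjusted p = 0.000261). Loxl2, a collagen crosslinking enzyme, was 8.55-fold higher in iPSC (adjusted p = 0.000121). Of the surface markers used for sorting or related to it, Nt5e, which encodes CD73, had 1.72 and 1.19 CPM in iPSC, against 50.7 and 46.0 CPM in day 6 efficient cells, 32.7-fold lower (adjusted p = 4.29e-06). Icam1, an adhesion receptor used elsewhere to mark late reprogramming cells, had 65.9 and 76.5 CPM in iPSC, against 1.92 and 0.646 CPM in day 6 efficient cells, 53.9-fold higher (adjusted p = 0.00107). Cd44 and Icam1 had therefore not reached their iPSC levels in the day 6 efficient population.

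Mesenchymal transcription factors were lower in iPSC for 20 of 50 tested and higher for 2, with 28 not called and a median log2 fold change of -0.56. The 2 higher became 1 without d6_Eff replicate 2 or iPSC replicate 1. The mesenchymal factors described here fell into those shut down before day 6 and those still present. Snai2 and Twist1, inducers of the mesenchymal state, were at 0.0430 to 2.57 CPM in iPSC, 0 to 2.98 CPM in day 6 efficient cells and 38.0 to 75.7 CPM in MEF, and were not called between the first 2 groups (adjusted p = 0.516 and 0.66). Hmga2 (ENSMUSG00000056758), a chromatin architectural protein of embryonic mesenchyme, had 6.02 and 1.78 CPM in iPSC, against 211 and 174 CPM in day 6 efficient cells and 365 and 271 CPM in MEF, 48.0-fold lower in iPSC (log2 -5.58 ± 0.45; adjusted p = 5.23e-06). Nfib, a nuclear factor I protein, had 11.6 and 11.5 CPM in iPSC, against 157 and 141 CPM in day 6 efficient cells and 140 and 117 CPM in MEF (adjusted p = 2.77e-07). Cebpd had 2.66 and 2.37 CPM in iPSC, against 49.0 and 50.2 CPM in day 6 efficient cells and 48.6 and 46.9 CPM in MEF (adjusted p = 5.99e-07). Nfib, Cebpd and Hmga2 were not called between day 6 efficient cells and MEF (adjusted p = 0.327, 0.868 and 0.131). Prrx1, a limb mesenchyme homeobox factor, had 0.0430 and 0.132 CPM in iPSC, against 16.9 and 11.5 CPM in day 6 efficient cells and 544 and 630 CPM in MEF.

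The Hox genes, which record position along the body axis, kept part of their fibroblast pattern. Of 35 tested, 14 were lower, 1 was higher (Hoxc13) and 20 were not called (median log2 fold change -3.13, 11 to 18 lower when 1 library was left out). The 14 came from the HoxA, HoxC and HoxD clusters, and no HoxB gene was called. Hoxa10 had 0.172 and 0.0659 CPM in iPSC, against 32.1 and 30.8 CPM in day 6 efficient cells and 54.5 and 58.6 CPM in MEF, 233-fold lower in iPSC (log2 -7.86 ± 0.36; adjusted p = 2.17e-07). Hoxd11 had 0.0860 and 0 CPM in iPSC, against 10.3 and 9.81 CPM in day 6 efficient cells and 16.1 and 9.91 CPM in MEF. Hoxa11 had 0 counts in iPSC, against 11.6 and 8.11 CPM in day 6 efficient cells, at least 126-fold lower in iPSC (adjusted p = 2.11e-06), and shares exonic sequence with its antisense gene Hoxa11os, so the 2 cannot be told apart.

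Epithelial genes did not simply continue upward. Of 48 junction and polarity genes, 17 were lower in iPSC, 5 higher and 26 not called (median log2 fold change -0.91), and the 17 became 11 without iPSC replicate 1. They took 0.292% and 0.301% of gene counts in iPSC, against 0.520% and 0.537% in day 6 efficient cells. E-cadherin (Cdh1) was at the same level, with 410 and 426 CPM in iPSC against 394 and 431 CPM in day 6 efficient cells and at most 0.140 CPM in MEF (log2 0.02 ± 0.23; adjusted p = 0.973 in iPSC against day 6 efficient cells). Epcam, which chose the day 6 cells, was 2.63-fold lower in iPSC (adjusted p = 0.00262). Ehf, an epithelial ETS factor, had 0.0860 and 0.329 CPM in iPSC, against 101 and 83.5 CPM in day 6 efficient cells and at most 0.0516 CPM in MEF, 481-fold lower in iPSC (log2 -8.91 ± 0.41; adjusted p = 2.17e-07). Dsp, the desmosomal linker desmoplakin, had at most 17.4 CPM in both iPSC libraries, against 93.4 and 132 CPM in day 6 efficient cells, and Krt8, a keratin of simple epithelia, had 43.0 and 26.5 CPM in iPSC, against 185 and 224 CPM in day 6 efficient cells. The keratins had no common direction: Krt7, another simple keratin, had 7.31 and 9.82 CPM in iPSC, against 0 and 0.117 CPM in day 6 efficient cells (adjusted p = 0.000195), and Krt18, the partner of Krt8, was not called (adjusted p = 0.691).

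Other epithelial genes ran the opposite way. Elf3, a further epithelial ETS factor, had 147 and 164 CPM in iPSC, against 13.5 and 14.0 CPM in day 6 efficient cells, 11.3-fold higher (adjusted p = 8.01e-06). Grhl3, a grainyhead factor, had 30.7 and 36.6 CPM in iPSC, against 2.90 and 2.00 CPM in day 6 efficient cells, 13.7-fold higher (adjusted p = 5.33e-05). Cdh3, P-cadherin, had 32.2 and 33.1 CPM in iPSC, against 1.16 and 0.411 CPM in day 6 efficient cells and 91.3 and 30.7 CPM in MEF. Grhl2, the related factor, was 2.99-fold lower in iPSC (adjusted p = 0.00411), a call that was lost without iPSC replicate 1 (adjusted p = 0.0517).

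A further set of lower genes stood higher in day 6 efficient cells than in both MEF and iPSC, and some of them were near 0 in both. Tac2 (ENSMUSG00000025400), a tachykinin neuropeptide gene, had 0 counts in iPSC and in MEF, against 153 and 133 CPM in day 6 efficient cells, at least 1833-fold lower in iPSC (adjusted p = 2.77e-07). Atp12a, a proton and potassium pump, had 0 counts in iPSC, against 50.7 and 39.2 CPM in day 6 efficient cells and at most 0.0516 CPM in MEF, at least 576-fold lower in iPSC (adjusted p = 7.14e-07). Pax7 (ENSMUSG00000028736), a paired-box factor of muscle stem cells and neural crest, had 0 and 0.0659 CPM in iPSC, against 60.7 and 57.6 CPM in day 6 efficient cells and 0 counts in MEF. These 3 genes were on in both libraries of day 6 efficient cells and at or next to 0 in iPSC and MEF. They were already detected in day 3 efficient cells, where Tac2 had 16.3 and 14.6 CPM, Atp12a 30.8 and 21.3 CPM and Pax7 3.56 and 2.70 CPM. Foxd1, a forkhead factor of stromal lineages, had 0.602 and 1.52 CPM in iPSC, against 104 and 98.9 CPM in day 6 efficient cells and 10.8 and 9.63 CPM in MEF. Tbx2, a T-box repressor, had 0.129 and 0 CPM in iPSC, against 111 and 119 CPM in day 6 efficient cells and 3.67 and 0.419 CPM in MEF. Of 14 neuropeptide and placental-type genes, a list gathered because earlier results of these data showed them on day 6, 8 were lower, 0 higher and 6 not called in iPSC, with 2 higher at an unadjusted p under 0.05 by edgeR, 0 higher by DESeq2 and 2 called higher without MEF replicate 1 or 2. That choice favoured lower calls in iPSC, so the count is only a description. The list took 0.0766% and 0.0697% of gene counts in day 6 efficient cells, against 0.0883% and 0.0967% in day 6 inefficient cells and 0.0967% and 0.0862% in day 3 efficient cells. Trh, the precursor of thyrotropin-releasing hormone, was shared, with 228 and 223 CPM in iPSC against 248 and 219 CPM in day 6 efficient cells and at most 0.0516 CPM in MEF (adjusted p = 0.872 in iPSC against day 6 efficient cells).

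**Figure D4:**
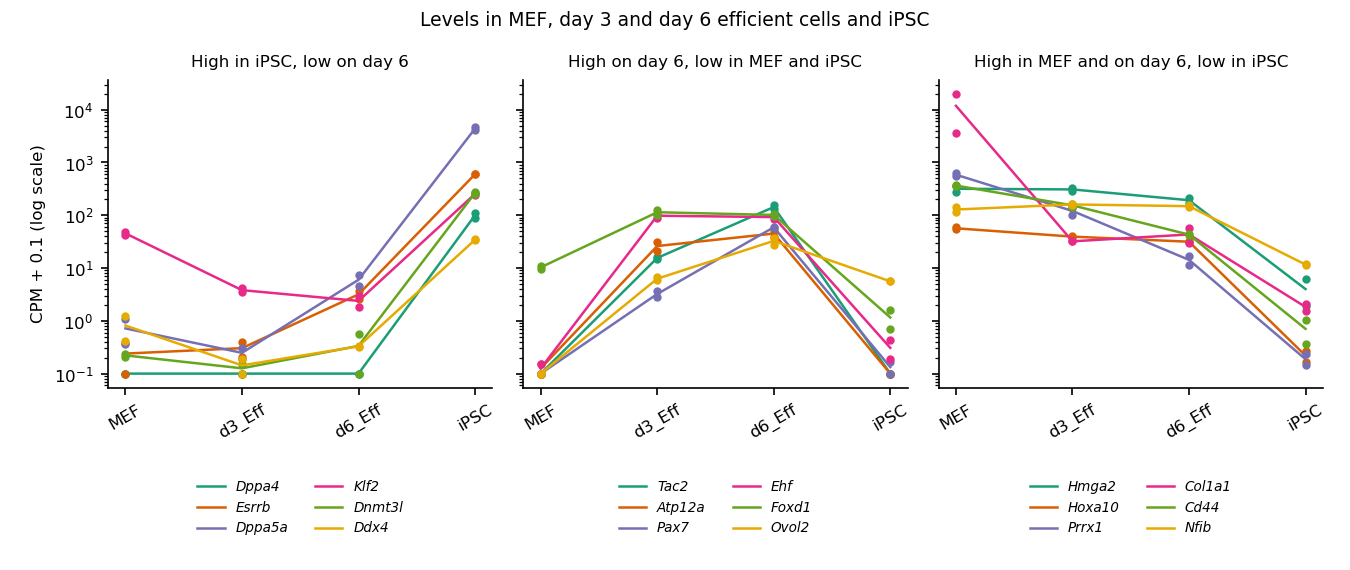
Levels (CPM + 0.1, log scale) in MEF, day 3 efficient cells, day 6 efficient cells and iPSC, with points for libraries and lines through group means, in 3 panels. The first panel holds genes high in iPSC and near 0 on day 6 (Dppa4, Esrrb, Dppa5a, Klf2, Dnmt3l, Ddx4), the second genes higher on day 6 than in MEF and iPSC (Tac2, Atp12a, Pax7, Ehf, Foxd1, Ovol2), and the third fibroblast genes still present on day 6 (Hmga2, Hoxa10, Prrx1, Col1a1, Cd44, Nfib). Foxd1 of the second panel was not near 0 in MEF.

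CDK inhibitors, D cyclins and p53 targets were lower in iPSC for 17 of 33 tested and higher for 1 (Ccnd3; 3 without MEF replicate 1 or 2), with 15 not called and a median log2 fold change of -1.15 (14 to 24 lower when 1 library was left out). CDK inhibitors restrain division and, with p53, are a known barrier to reprogramming, whereas the D cyclins in the same list drive entry into the cycle. Cdkn1a, the p21 inhibitor, had 65.3 and 68.4 CPM in iPSC, against 286 and 248 CPM in day 6 efficient cells and 499 and 495 CPM in MEF, 3.99-fold lower in iPSC (adjusted p = 6.12e-06). Cdkn2a, which encodes p16 and p19Arf, had 16.8 and 17.0 CPM in iPSC, against 118 and 147 CPM in day 6 efficient cells and 173 and 185 CPM in MEF, 7.86-fold lower in iPSC (adjusted p = 5.62e-06). Cdkn2a was not called between day 6 efficient cells and MEF (adjusted p = 0.145), whereas its neighbour Cdkn2b was, with 4.08 and 1.65 CPM in iPSC, 10.6 and 11.5 CPM in day 6 efficient cells and 179 and 220 CPM in MEF. Cyclin D2 (Ccnd2, ENSMUSG00000000184) had 27.2 and 27.0 CPM in iPSC, against 1079 and 860 CPM in day 6 efficient cells and 930 and 780 CPM in MEF, 35.8-fold lower in iPSC (log2 -5.16 ± 0.23; adjusted p = 2.17e-07). Ccnd3 had 205 and 194 CPM in iPSC, against 79.4 and 80.2 CPM in day 6 efficient cells, 2.50-fold higher (adjusted p = 8.51e-05). Ccnd2 and Ccnd3 thus differed in opposite directions. Trp53 itself had 495 and 497 CPM in iPSC, against 371 and 340 CPM in day 6 efficient cells (log2 0.48 ± 0.18; adjusted p = 0.0696), and was called without MEF replicate 1 (adjusted p = 0.00534) or MEF replicate 2 (0.00343), with RLE scaling (0.0401), in the 4 libraries alone (0.000553) and by DESeq2 (0.00800). Exons of Ccnd3 overlap the opposite-strand gene Bysl.

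The 4 Id genes were lower in iPSC than in day 6 efficient cells. The Id proteins are direct BMP targets that block basic helix-loop-helix factors. Of 16 BMP genes, 7 were lower, 4 higher and 5 not called, and the 4 became 2 without d6_Eff replicate 1 or iPSC replicate 1 and 1 without d6_Eff replicate 2 or iPSC replicate 2. Id1, Id2, Id3 and Id4 were lower in iPSC by 6.23-fold, 25.2-fold, 23.0-fold and 13.5-fold in that order. Id2 had 13.2 and 13.6 CPM in iPSC, against 370 and 306 CPM in day 6 efficient cells and 9.45 and 16.9 CPM in MEF (log2 -4.66 ± 0.31; adjusted p = 1.44e-06). Id3 had 7.91 and 4.28 CPM in iPSC, against 147 and 137 CPM in day 6 efficient cells and 133 and 175 CPM in MEF (adjusted p = 1.17e-06). Id2 was thus high on day 6 and low at both ends, whereas Id3 was at the MEF level on day 6.

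Of 32 TGF-beta, YAP and contractile genes, 13 were lower, 6 higher and 13 not called (median log2 fold change -0.66). They took 0.208% and 0.180% of gene counts in iPSC, against 0.285% and 0.282% in day 6 efficient cells and 2.57% and 1.86% in MEF. The receptor Tgfbr2 had 1.29 and 2.04 CPM in iPSC, against 29.4 and 29.2 CPM in day 6 efficient cells and 289 and 190 CPM in MEF, 17.9-fold lower in iPSC (log2 -4.16 ± 0.29; adjusted p = 2.01e-06). Smad7, the inhibitor of the same receptor, had 74.6 and 69.6 CPM in iPSC, against 4.99 and 3.41 CPM in day 6 efficient cells and at least 35.2 CPM in both MEF libraries, 17.1-fold higher in iPSC (adjusted p = 2.01e-06). Receptor and inhibitor thus differed in opposite directions. Ccn2, a matricellular target of YAP, had 17.3 and 14.6 CPM in iPSC, against 75.9 and 94.3 CPM in day 6 efficient cells and 992 and 949 CPM in MEF. The smooth muscle gene Tagln was at its iPSC level on day 6, with 64.6 and 29.8 CPM in iPSC against 58.8 and 39.5 CPM in day 6 efficient cells and 2553 and 5213 CPM in MEF (adjusted p = 0.941 in iPSC against day 6 efficient cells). Exons of Ccn2 and Tagln overlap opposite-strand genes.

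Imprinted genes included abundant transcripts that were lower in iPSC. They are expressed from 1 parental allele under DNA methylation control, and the counts do not separate alleles. The list of imprinted and X-linked dosage genes was balanced, with 8 of 29 higher, 8 lower and 13 not called (median log2 fold change 0.09). It took 0.104% and 0.0931% of gene counts in iPSC, against 0.727% and 0.607% in day 6 efficient cells and 0.391% and 0.203% in MEF. The share was larger in day 6 inefficient cells (1.89% and 2.07%), day 3 efficient cells (2.24% and 2.50%) and day 3 inefficient cells (2.15% and 1.82%). Day 6 efficient cells were thus below the other day 3 and day 6 groups. Igf2 (ENSMUSG00000048583), the fetal growth factor, had 9.20 and 5.34 CPM in iPSC, against 1354 and 1107 CPM in day 6 efficient cells and 389 and 213 CPM in MEF, 168-fold lower in iPSC (log2 -7.39 ± 0.42; adjusted p = 6.27e-07). H19 (ENSMUSG00000000031), the noncoding RNA of the same domain and expressed from the opposite allele, had 28.8 and 23.2 CPM in iPSC, against 3476 and 2760 CPM in day 6 efficient cells and 1695 and 1072 CPM in MEF, 120-fold lower in iPSC (adjusted p = 3.84e-07). Meg3, the noncoding RNA of the Dlk1 domain, had 2.19 and 0.988 CPM in iPSC, against 54.3 and 47.8 CPM in day 6 efficient cells. Xist, the noncoding RNA of X inactivation, had 4.64 and 2.50 CPM in iPSC, against 82.2 and 130 CPM in day 6 efficient cells and 40.3 and 17.6 CPM in MEF. Igf2, H19, Meg3 and Xist were lower in every iPSC library than in any library of day 6 efficient cells or MEF. Peg10 had 170 and 122 CPM in iPSC, against 6.99 and 8.93 CPM in day 6 efficient cells, 18.4-fold higher (adjusted p = 4.44e-05), and Peg3 was 6.01-fold higher (adjusted p = 7.68e-05). Phlda2, a placental growth inhibitor gene, had 87.9 and 89.6 CPM in iPSC, against 0 and 0.587 CPM in day 6 efficient cells (adjusted p = 0.000123 by edgeR, 0.115 by DESeq2). Exons of Igf2 and Xist overlap the opposite-strand genes Igf2os and Tsix.

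**Figure D5:**
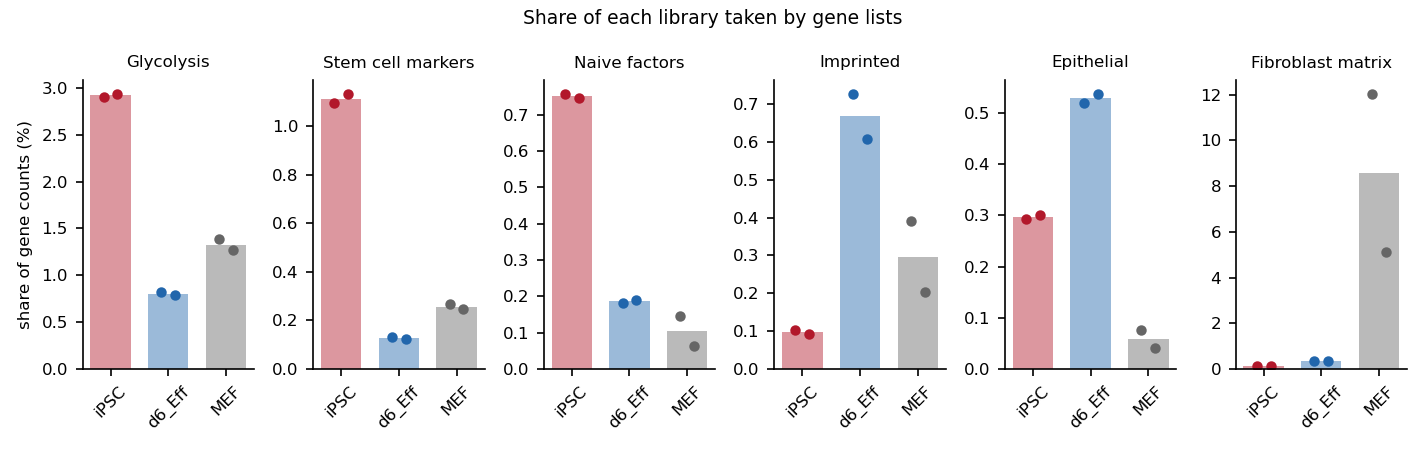
Share of gene counts (percent) taken by 6 gene groups in iPSC, day 6 efficient cells and MEF, with bars for group means and points for the 2 libraries. Glycolysis takes 2.90% and 2.94% in iPSC and 0.823% and 0.786% in day 6 efficient cells, and imprinted and X-linked dosage genes take 0.104% and 0.0931% in iPSC and 0.727% and 0.607% in day 6 efficient cells. Day 6 inefficient cells and the day 3 groups are not drawn. The imprinted and X-linked genes took more there, such as 1.89% and 2.07% in day 6 inefficient cells.

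Receptors and growth factor components exchanged too. Of 31 receptor tyrosine kinase and IGF genes, 13 were lower, 7 higher and 11 not called, and the 7 became 4 without d6_Eff replicate 2, iPSC replicate 1 or iPSC replicate 2. Axl, a receptor of the TAM family, had 3.31 and 2.70 CPM in iPSC, against 39.6 and 37.1 CPM in day 6 efficient cells and 797 and 720 CPM in MEF, 12.7-fold lower in iPSC (adjusted p = 4.3e-07). Kit, the stem cell factor receptor, had 130 and 136 CPM in iPSC, against 6.77 and 3.94 CPM in day 6 efficient cells and 0 counts in MEF, 24.7-fold higher in iPSC (adjusted p = 0.00035). Igfbp2, an IGF-binding protein, had 960 and 1100 CPM in iPSC, against 25.1 and 36.3 CPM in day 6 efficient cells, 33.6-fold higher (adjusted p = 1.05e-06), whereas Igfbp3 was 7.07-fold lower, with 26.4 and 21.0 CPM in iPSC against 181 and 155 CPM in day 6 efficient cells (adjusted p = 1.06e-05).

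Of 39 inflammation, interferon and antigen presentation genes, 12 were lower, 8 higher and 19 not called, and the 8 became 5 without d6_Eff replicate 2, iPSC replicate 1 or iPSC replicate 2. B2m, the light chain of class I molecules, averaged 16.2 ± 2.51 CPM in iPSC and 75.9 ± 24.8 CPM in day 6 efficient cells (SD, n = 2 each), 4.69-fold lower in iPSC (adjusted p = 0.000164). Bst2, an antiviral tether, was 4.85-fold lower (adjusted p = 9.9e-05), whereas Ifitm1 was 8.44-fold higher, at 174 ± 14.3 CPM in iPSC and 20.6 ± 2.27 CPM in day 6 efficient cells (SD, n = 2 each) (adjusted p = 7.17e-06). Of 23 AP-1 and immediate early genes, which also respond to cell handling, 6 were lower, 4 higher and 13 not called. Egr1 had 8.42 and 7.97 CPM in iPSC, against 97.8 and 122 CPM in day 6 efficient cells and 130 and 33.6 CPM in MEF, 13.4-fold lower in iPSC (adjusted p = 0.000387). Jun was 4.27-fold lower (adjusted p = 0.0015), Dusp1, a phosphatase that ends MAP kinase signalling, was 9.23-fold higher (adjusted p = 3.68e-06), and Fos overlapped between the groups, with 17.4 and 12.8 CPM in iPSC against 14.1 and 21.1 CPM in day 6 efficient cells.

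Markers of other cell types were counted to see what the sorted population could hold. The members called higher and lower in iPSC were 6 and 3 of 13 for trophoblast, 1 and 2 of 11 for primitive endoderm, 1 and 2 of 7 for leukocytes, 3 and 3 of 12 for endothelium, 3 and 1 of 5 for skeletal muscle, 6 and 3 of 15 for neural cells, and 0 and 0 of 3 for erythroid cells, where edgeR gave 0 at an unadjusted p under 0.05 and DESeq2 gave 0. The 6 trophoblast genes became 3 without iPSC replicate 1 or 2, and the 3 lower became 1 without iPSC replicate 1. The 3 muscle genes became 1 without any 1 of the 4 compared libraries. The 1 higher leukocyte gene became 0 without any 1 day 3 or compared library and 2 without MEF replicate 1, the 2 lower became 1 without d6_Eff replicate 1 or either iPSC library, and the 1 higher primitive endoderm gene became 0 without d6_Eff replicate 2 or either iPSC library and 2 without d6_Eff replicate 1 or MEF replicate 2. A minority of the leukocyte and endothelial markers were lower in iPSC. Laptm5, a lysosomal protein of leukocytes, had 31.8 and 34.6 CPM in iPSC, against 198 and 201 CPM in day 6 efficient cells. Tek, the angiopoietin receptor of endothelium, had 5.46 and 3.76 CPM in iPSC, against 71.6 and 70.8 CPM in day 6 efficient cells. Cdh5 and Esam (log2 -7.79 and -3.21, adjusted p = 0.00198 and 0.00304 by edgeR) were lower in iPSC as well. So was Lyz2 (log2 -7.71, adjusted p = 0.0128 by edgeR), a call lost without d6_Eff replicate 1 or either iPSC library. Other markers went the opposite way. Pecam1, an endothelial marker also known in naive stem cells, was 313-fold higher in iPSC and at most 0.235 CPM in day 6 efficient cells. The endothelial genes Flt1 and Vwf (log2 2.96 and 4.04, adjusted p = 0.00137 and 0.0134 by edgeR) were higher in iPSC too. So was the leukocyte gene Cd68 (log2 1.40, adjusted p = 0.0409 by edgeR). The calls of Vwf and Cd68 turned on single libraries. The part of such cells in the results was not tested.

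By level, 293 genes called higher were under 1 CPM in both libraries of day 6 efficient cells and at least 5 CPM in both iPSC libraries, and 172 genes called lower showed the reverse. Of the 293, 213 (72.7%) were also under 1 CPM in both MEF libraries and 32 were at 5 CPM or more in both. Of the 172, 83 (48.3%) were at 5 CPM or more in both MEF libraries and 49 were under 1 CPM in both, and 123 were at 5 CPM or more in both libraries of day 3 efficient cells. The first set held 17 germline genes, 12 core stem cell markers and 7 naive factors of the lists. The second held 7 matrix, 5 Hox and 4 mesenchymal factor genes. Most of the 293 genes were thus off in MEF as well. The 172 genes were more often on than off in MEF, and the 49 that were off there were not carried over from the MEF level. The shares of all genes tested that were on or off in MEF were not computed, so these shares have no background beside them.

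Values for the neighbouring comparisons place these differences. Day 6 efficient cells against MEF gave 6914 calls (42.6%), 3391 higher and 3523 lower, or 4408 higher and 2673 lower with no scaling factor, and 2236 higher without d6_Eff replicate 1. The iPSC against day 6 inefficient cells, which shares the iPSC libraries, gave 7087 calls (43.6%), 3351 higher and 3736 lower, and the 3351 became 1824 and 2057 without d6_Ineff replicate 1 and 2 and 2036 and 2117 without iPSC replicate 1 and 2. Of the 172 genes on in day 6 efficient cells and under 1 CPM in iPSC, 147 were also at 5 CPM or more in both libraries of day 6 inefficient cells, and of the 293 genes under 1 CPM in day 6 efficient cells, 232 were also under 1 CPM in day 6 inefficient cells.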

How the data were processed

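Poly-A RNA was measured in 12 libraries, 2 per group, made with a directional kit per the labels' protocols. The deposited values are raw counts per gene. Per the submitters' processing notes, the authors used STAR 2.3.0, Picard 1.100 and HTSeq 0.6.0 with mm9, and the deposited tables are marked as not stranded. Which annotation was counted is not given in the sources used. Symbols were found for 32860 of 37583 gene IDs (87.4%) and names and promoters were taken from reference tables of another build. All 12 libraries entered 1 edgeR 4.0.16 quasi-likelihood fit (R 4.3.3) with TMM scaling, edgeR's filter on low counts and group as the only term, which left 16240 genes and 6 residual degrees of freedom, with an estimated spread between replicates (biological coefficient of variation) of 28.0%. Adjusted p-values are Benjamini-Hochberg over all genes tested, with a threshold of 0.05. The SE of a log2 fold change is its size divided by the square root of the F statistic, and fold changes use a prior count of edgeR's default. Fold bounds against 0 counts use 3 counts over the group, a floor of 0.0780 CPM in iPSC and 0.0760 CPM in day 6 efficient cells that covers counting error only. The fit was tested on simulated data. Members and gene lists were chosen with earlier results of these data known. The 38 lists hold 951 distinct symbols, of which 860 were tested, 78 fell below the count filter and 13 were not matched. Named genes were the 15 called genes with the largest change in each direction (5 CPM or more in every library of the higher group), up to 4 called members per direction of each list by adjusted p, and each list's core members. Level classes use limits of 1 and 5 CPM. Alternatives were RLE or no scaling, no count filter, a replicate block, the 4 libraries alone, a test against a log2 fold of 1, DESeq2 1.42.0 and each library left out. No libraries differed by less than sampling noise.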

Additional observations from a re-analysis of the deposited data

How the results depend on the processing

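For iPSC against day 6 efficient cells, fitting the 4 libraries alone gave 7657 genes called with 4011 higher, and testing against a log2 fold of 1 gave 2184 called, 952 higher and 1232 lower. Leaving out 1 library gave 2834 to 6815 called, 1177 to 3352 higher and 1604 to 3622 lower. For day 6 efficient cells against MEF it gave 2236 to 4422 higher, and for iPSC against day 6 inefficient cells 1824 to 4339 higher. RLE scaling, no scaling, no count filter, the replicate block and DESeq2 stayed within 1.5 times for these counts (4502 to 5365 called in iPSC against day 6 efficient cells). For that comparison, no gene called was called in the opposite direction under the settings run. With the replicate block 4624 genes were called, 2056 higher and 2568 lower. The replicate numbers share only a number: replicate differences of iPSC and day 6 efficient cells correlated at 0.098, and at -0.101 to 0.213 over all pairs of groups. Genes off in day 6 efficient cells and on in iPSC numbered 147 with on at 10 CPM, and those on in day 6 efficient cells and off in iPSC numbered 102 with off under 0.5 CPM and 90 with on at 10 CPM. Of 300 named genes, 211 kept their call in all 19 alternatives and 56 changed it without 1 library. The cause of these shifts was not tested. Both the 2 libraries a group and the depth, at least 9284060 gene counts a library, limit precision.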

Other observations

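Zinc finger genes of chromosome 4 stood apart from other zinc finger genes, a pattern chosen after its values were seen. Of 28 tested genes on that chromosome with names that begin with Zfp, 15 (53.6%) were higher and 3 lower in iPSC than in day 6 efficient cells, with a median log2 fold change of 2.70. Several of the 15, such as Zfp600 and Zfp986, had 0 counts in every library outside iPSC. These passed the filter on low counts through iPSC alone and could only be called higher, so the share and the median partly follow from the filter. Of the 333 such genes on other chromosomes, 28 (8.41%) were higher and 55 lower, with a median of -0.16. Zfp979 had 133 and 119 CPM in iPSC, against 0.846 and 2.06 CPM in day 6 efficient cells. Zfp981 had 73.3 and 70.3 CPM in iPSC, against 0.0445 and 0 CPM in day 6 efficient cells, and Zfp988 had 71.4 and 62.4 CPM in iPSC, against 0.178 and 0.0587 CPM in day 6 efficient cells. These 3 genes were low in both libraries of day 6 efficient cells, whereas Zfp462 and Zfp292 of the same chromosome, at 92.1 and 95.6 CPM and at 42.3 and 38.8 CPM there, were not. Many of them are near-identical copies, so reads may be split or dropped between them and the single values are uncertain.

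Genes of the X chromosome were called lower more often than higher in iPSC. Of 585 tested, 12.1% were higher and 22.7% lower than in day 6 efficient cells, beside 13.6% and 15.9% of all genes, and their median log2 fold change was -0.19. This was not particular to the X chromosome. Chromosome 3 had 11.8% higher and 20.7% lower (median -0.15), and chromosome 1 had 10.8% and 20.2% (median -0.11). Other chromosomes went the other way, such as chromosome 4 with 16.4% higher and 13.6% lower.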
